A study of Mus musculus with 19 samples.

Results

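The 7 ADAMTS genes described here are Adamts1, Adamts2, Adamts4, Adamts5, Adamts8, Adamts9 and Adamts10, taken as every array probe whose gene name in the per-array files is one of these. They were chosen because, in cultured hippocampal neurons, Adamts1 was lower and Adamts8 higher after NMDA receptors had been blocked with AP5. The array held 18 probes for them among 41174 probes. Of the 18, 15 could be fitted, as part of 28638 fitted probes (19201 genes); each of the 7 genes kept at least 1 probe.

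ADAMTS proteins are secreted zinc metalloproteases that carry thrombospondin motifs, act in the extracellular matrix and are made as inactive precursors. Adamts1, Adamts4, Adamts5, Adamts8 and Adamts9 belong to the branch that cuts aggrecan, brevican, versican and related chondroitin sulfate proteoglycans, which in brain surround neurons and form perineuronal nets. Adamts2 removes the N-terminal propeptide of fibrillar procollagens, and Adamts10 acts with fibrillin microfibrils.

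Dissociated mouse hippocampal neurons were cultured for 21 days and treated for 6 h. The groups were vehicle (5 arrays, not described further), 100 µM AP5 (5 arrays), 100 nM NVP-AAM077, called NVP here (4 arrays), and 1 µM of a compound that the titles call Ro25 (5 arrays). AP5 is a competitive antagonist of all NMDA receptors, the glutamate-gated calcium channels that couple synaptic activity to gene expression, and NVP-AAM077 is an antagonist with a preference for GluN2A-containing receptors. The number in the longer name of Ro25 is not that of the widely used GluN2B antagonist, so its identity is open. The 3 compounds were used at different concentrations. No genotype, strain or sex is given, and all groups share the same culture type and age. Whether replicates are separate cultures is not stated; the p-values cover the spread among these arrays alone, and that spread may be technical.

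Each array compared neuron RNA in the red dye (Cy5) with a universal mouse reference RNA in the green dye (Cy3), and the dyes were never swapped. Values are log2 of red over green, so 0 means equal signal in neurons and reference; values of different probes are not compared with each other. Between 24506 and 28507 probes per array had a red signal well above background. AP5 replicates 1 to 4 filled slide 1, and vehicle replicates 1, 3, 4 and 5 filled slide 5. AP5 replicate 5 shared slide 2 with NVP replicates 1 and 3, and vehicle replicate 2 shared slide 4 with Ro25 replicates 2, 3 and 5, so no slide held both AP5 and vehicle. Of the 28638 probes, 17% were called between AP5 and vehicle (limma, Benjamini-Hochberg adjusted p under 0.05), 60.2% of them higher. With each array centred on its median in place of a loess fit, 95.1% of the calls were higher and the median difference of all probes moved from 0.01 to 0.17. In vehicle, the mean log2 ratio was 4.96 for 8 neuron markers and 4.22 for 8 astrocyte markers, so glial transcripts were read along with neuronal ones. Of 6 endothelial markers, Emcn was well above background on 19 arrays, Tek on 16, Pecam1 on 9, Cldn5 on 8, and Cdh5 and Tie1 on 0.

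Adamts1 is a proteoglycan-cutting and antiangiogenic family member, first isolated as a gene associated with inflammation. Its 2 probes lie on the minus strand of chromosome 16 (assembly mm8), probe A_52_P489295 at chr16:85683995-85684054 and probe A_52_P213932 at chr16:85685142-85685201. Whether a probe lies in an exon or a UTR was not determined, since no annotation of that assembly was used. At A_52_P489295 the 5 vehicle arrays gave log2 ratios of -0.84, -0.60, -0.46, -0.60 and -0.28 (mean -0.56 ± 0.21, SD). The 5 AP5 arrays gave -1.58, -1.81, -1.86, -1.73 and -1.37 (mean -1.67 ± 0.20, SD). All AP5 arrays lay below all vehicle arrays. The mean difference was -1.12 (SE 0.12), which is 2.17-fold lower (95% interval 1.83 to 2.57). The members were chosen on this contrast, so this and the other AP5 minus vehicle differences of members are a description with no test.

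At the same Adamts1 probe the NVP arrays gave -0.89, -0.52, -1.04 and -0.74, and the Ro25 arrays gave -0.60, -0.52, -0.80, -0.78 and -0.95. Both sets overlapped the vehicle arrays, and all 9 values lay above the highest AP5 value of -1.37.

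The other Adamts1 probe, A_52_P213932, was dimmer and also had its lowest values in AP5. Its vehicle arrays gave -0.61, -0.64, -0.46, -0.70 and -0.34 and its AP5 arrays -1.30, -1.32, -1.29, -1.11 and -1.12, again with no overlap. The difference was -0.68 (SE 0.07), or 1.60-fold lower. NVP ran from -0.72 to -0.41 and Ro25 from -0.73 to -0.50, within or close to the vehicle range of -0.70 to -0.34.

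These differences lay in the neuron channel. In red signal alone the AP5 minus vehicle difference was -1.13 at A_52_P489295 and -0.59 at A_52_P213932, and the green reference signal of these probes differed by 0.03 and 0.04. In bulk RNA, fewer cells of a type that makes a transcript and less transcript per cell cannot be told apart. With slide as a fixed block, a fit in which AP5 and vehicle are linked only through arrays of slides 2 to 4, the differences shrank to -0.50 and -0.33, and slide and treatment cannot be told apart in full. The AP5 array in that link, replicate 5, was the AP5 array lowest in astrocyte markers.

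**Figure D1:**
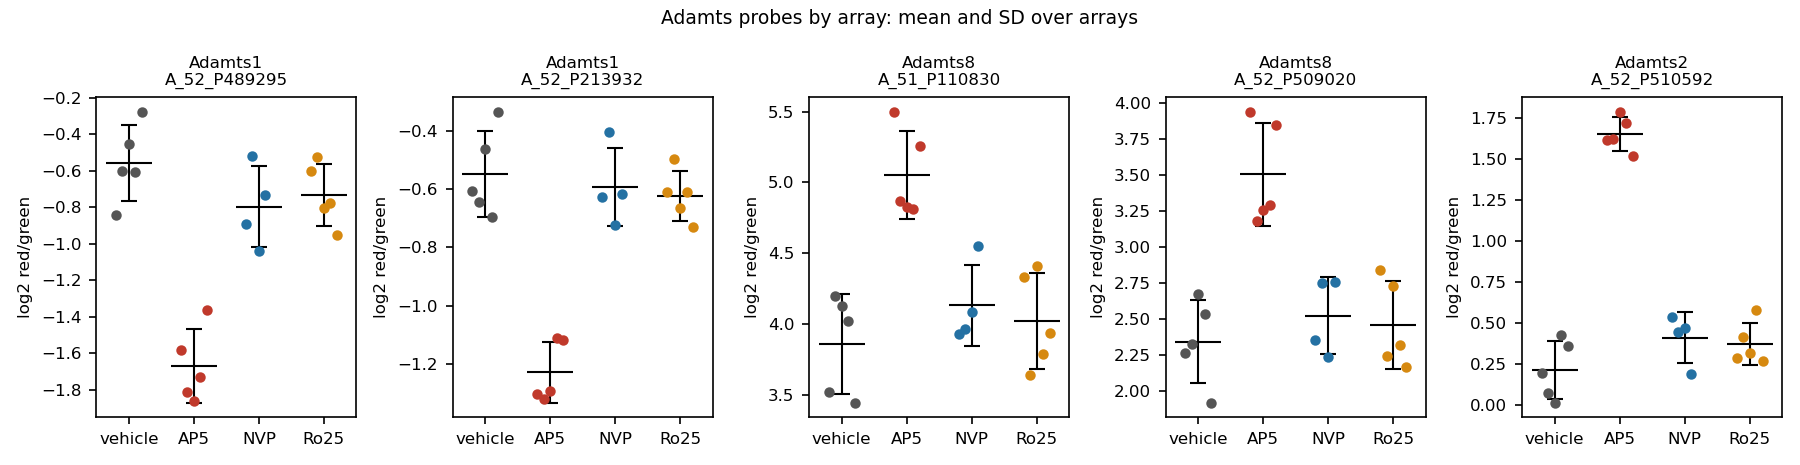
Log2 red over green (y axis, a separate scale per panel) at both Adamts1 probes, both Adamts8 probes and Adamts2 probe A_52_P510592, for vehicle, AP5, NVP and Ro25; each point is an array, the horizontal line the group mean and the bars 1 SD. The AP5 points lie below all others at both Adamts1 probes and above all others in the remaining panels, where at A_51_P110830 they start at 4.81 and the highest other array is at 4.55.

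Adamts8, also a proteoglycan-cutting protease and, with Adamts1, among the first family members described as inhibitors of blood vessel growth, had its 2 fitted probes on the plus strand of chromosome 9. Probe A_51_P110830 lies at chr9:30712200-30712259 and A_52_P509020 at chr9:30712141-30712200 (mm8), so they share 1 base and sample nearly the same stretch of the transcript. At A_51_P110830 the vehicle arrays gave 3.52, 4.20, 4.13, 4.02 and 3.44 (mean 3.86 ± 0.35, SD). The AP5 arrays gave 5.50, 4.87, 4.83, 4.81 and 5.26 (mean 5.05 ± 0.31, SD). Every AP5 array was above every vehicle array, with AP5 replicates 1 and 5 the highest. The difference was 1.19 (SE 0.19), or 2.28-fold higher (95% interval 1.74 to 2.99).

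The NVP arrays gave 3.93, 3.96, 4.08 and 4.55, and the Ro25 arrays gave 4.33, 3.64, 4.41, 3.79 and 3.93. Both ranges overlapped vehicle and stayed below the lowest AP5 array.

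At A_52_P509020 the vehicle arrays gave 2.26, 2.32, 2.67, 2.53 and 1.92 and the AP5 arrays 3.94, 3.18, 3.26, 3.29 and 3.85. The groups did not overlap, and AP5 replicates 1 and 5 were again the highest. The difference was 1.16 (SE 0.18). NVP ran from 2.23 to 2.76 and Ro25 from 2.16 to 2.84.

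The reference RNA held little Adamts8: green was well above background on 7 of 19 arrays at A_51_P110830 and on 0 at A_52_P509020, while red was above it on all 19 at both. The size of these ratios therefore depends on how background is handled. In red signal alone the AP5 minus vehicle differences were 1.14 and 0.98. With the background model fitted to every spot, marked spots included, they were 0.83 and 0.79, and with the extraction software's own ratios 0.77 and 1.46.

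The remaining Adamts8 probe, A_51_P355558, lies on the minus strand at chr9:30690921-30690980, opposite to the other Adamts8 probes. It was well above background in red on 0 of 19 arrays and gives no reading of the gene here.

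Adamts2, the procollagen propeptidase, was measured by 4 probes spread over 30.6 kb of the plus strand of chromosome 11 (mm8), and they disagreed. At A_52_P510592 (chr11:50641399-50641458), which the files tie to a cDNA clone and not to the RefSeq transcript, vehicle gave 0.19, 0.07, 0.01, 0.42 and 0.36. AP5 gave 1.62, 1.62, 1.79, 1.72 and 1.52, above every array of the other groups. The difference of 1.44 (SE 0.09), or 2.72-fold higher, had the greatest size of the 15 fitted probes. NVP gave 0.54, 0.44, 0.47 and 0.19 and Ro25 0.29, 0.41, 0.31, 0.58 and 0.27, which overlapped vehicle.

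The other Adamts2 probes showed no such step. Probe A_52_P184042, the first along the chromosome (chr11:50620109-50620168), differed by -0.21 (SE 0.08) between AP5 and vehicle. Probe A_51_P227222 (chr11:50647393-50647452), 27.3 kb from the first and tied to the RefSeq transcript, gave -4.45, -4.36, -4.18, -4.42 and -4.27 in vehicle and -3.91, -4.35, -4.30, -4.36 and -4.27 in AP5. Those groups overlapped, and the difference was 0.10 (SE 0.10). It was 0.017 without AP5 replicate 1, the array at -3.91, and 0.35 in red signal alone. The probe farthest along, A_51_P164817 (chr11:50650754-50650813), differed by -0.18 (SE 0.09) and was well above background in red on 12 of 19 arrays.

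The brightest Adamts2 probe, A_51_P227222, had a mean log2 ratio of -4.34 in vehicle, far more signal in the reference than in neurons. An account of Adamts2 from these arrays therefore turns on which probe is read: 1 of 4 placed AP5 apart from vehicle. Which transcript A_52_P510592 detects was not tested.

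**Figure D2:**
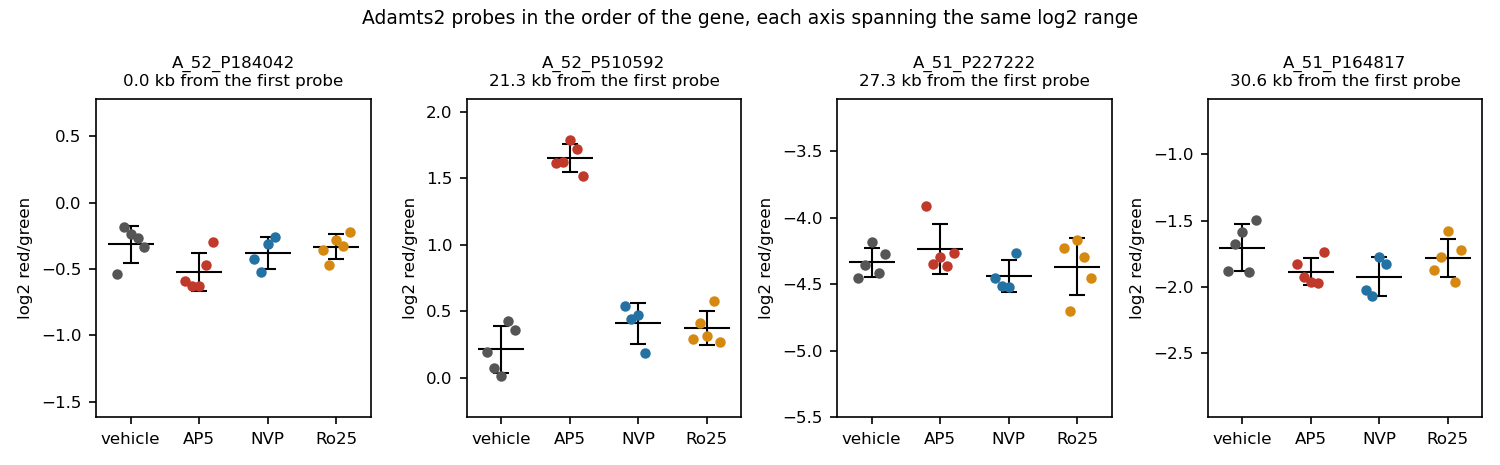
Log2 red over green (y axis, each panel spanning the same range of log2 units) at the 4 Adamts2 probes, ordered by position from 0 to 30.6 kb along the plus strand, for the 4 groups; points are arrays, lines means and bars 1 SD. Only the second panel, A_52_P510592 at 21.3 kb, has AP5 arrays (1.52 to 1.79) apart from the vehicle arrays (0.01 to 0.42).

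Adamts4 and Adamts5, the principal aggrecanases of cartilage, differed little from vehicle with AP5. At the Adamts4 probe A_51_P234944 (chr1:173096215-173096274, plus strand) AP5 gave -1.36, -0.81, -1.13, -1.10 and -1.22 against -0.97, -1.07, -1.08, -0.99 and -0.80 in vehicle, a difference of -0.14 (SE 0.09). At the Adamts5 probe A_51_P233534 (chr16:85751627-85751687, minus strand) AP5 gave -3.31, -3.63, -3.59, -3.16 and -3.35 against -3.31, -3.31, -3.23, -3.39 and -3.01, a difference of -0.16 (SE 0.10). In both cases the groups overlapped. A second Adamts5 probe, A_52_P70231, was above background on 3 arrays and was not fitted.

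Adamts5 is the neighbour of Adamts1. In the RefSeq gene table (GRCm38.p6) the pair lies side by side on chromosome 16 with 1 gene between them, which codes for no protein. Adamts8 and Adamts15 are likewise neighbours on chromosome 9 with 0 genes between. The brightest probe of each neighbour differed little between AP5 and vehicle, by -0.16 for Adamts5 and -0.05 for Adamts15, against -1.12 for Adamts1 and 1.19 for Adamts8.

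Adamts9, a widely expressed proteoglycan-cutting member, was measured by 3 probes on the minus strand of chromosome 6. At A_51_P479390 AP5 gave -0.27, -0.26, -0.12, -0.26 and 0.02 and vehicle 0.03, 0.02, 0.09, -0.11 and -0.07. AP5 replicate 5 lay among the vehicle arrays, and the difference was -0.17 (SE 0.06). Red was well above background at this probe on 14 of 19 arrays, 2 of them AP5 arrays. Over the alternatives the difference ran from -0.59 to -0.0076. The brightest probe, A_52_P49321, differed by -0.08 (SE 0.05), and A_51_P407417 by -0.06 (SE 0.10).

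Adamts10 was measured by 2 fitted probes on the plus strand of chromosome 17, with differences of -0.16 (SE 0.07) at A_51_P175069 and 0.02 (SE 0.09) at A_52_P671784. The first had overlapping groups and rests in part on vehicle replicate 5, at -0.71 against -1.16 to -1.05 on the other vehicle arrays; without that array it was -0.083. The remaining probe, A_52_P557212, was above background on 0 arrays.

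Across the 15 fitted probes, 6 passed the threshold between AP5 and vehicle, 3 higher and 3 lower, and at 5 the groups did not overlap. Over all probes 17% were called (10.2% higher and 6.76% lower), and at 11.4% the groups did not overlap. Since the members were picked on this contrast, nothing is read from that count. The 6 were both Adamts1 probes, both Adamts8 probes, Adamts2 probe A_52_P510592 and Adamts9 probe A_51_P479390. AP5 had the lowest of the 4 group means at 8 probes and the highest at 4. The sign of the small differences depended on the setting. In red signal alone, AP5 minus vehicle was above 0 at Adamts4 (0.02), Adamts5 (0.03), Adamts10 A_51_P175069 (0.13), Adamts2 A_51_P164817 (0.10) and Adamts9 A_51_P407417 (0.13). It stayed below 0 at Adamts2 A_52_P184042 (-0.23), Adamts9 A_52_P49321 (-0.03) and Adamts9 A_51_P479390 (-0.20). The probes that were not called spanned differences of -0.21 to 0.10.

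The question for NVP and Ro25 is whether they moved these genes as AP5 did. Neither was found to change any member. In NVP minus vehicle, 0 of 15 member probes were called by limma, as were 0% of the 28638 probes. At an unadjusted p under 0.05 there were 4 member probes, and 8.15% of all probes. In Ro25 minus vehicle the counts were 0 called (0% of all), and 0 of 15 against 5.7% unadjusted. Both comparisons use the same vehicle arrays as the contrast that chose the members, and also share them with each other.

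At Adamts1 A_52_P489295, NVP differed from vehicle by -0.24 (95% interval -0.50 to 0.02; limma adjusted p = 0.658) and Ro25 by -0.18 (-0.42 to 0.07; adjusted p = 0.999). At the other Adamts1 probe the differences were -0.04 and -0.07.

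At Adamts8 A_51_P110830, NVP differed by 0.27 (-0.14 to 0.69; adjusted p = 0.83) and Ro25 by 0.16 (-0.23 to 0.55; adjusted p = 1). At A_52_P509020 they differed by 0.18 and 0.12. The direction for Ro25 depends on the setting: with the background model fitted to every spot, Ro25 differed from vehicle by -0.56 and -0.44 at these probes, outside the interval given for the first. With slide as a fixed block, the first probe gave -0.0067 for NVP and -0.20 for Ro25. At Adamts2 A_52_P510592, NVP differed by 0.20 (0.00 to 0.39; adjusted p = 0.599) and Ro25 by 0.16 (-0.02 to 0.34; adjusted p = 0.945).

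The 4 member probes with an unadjusted p under 0.05 for NVP were small in size. They were Adamts2 A_51_P164817 at -0.22, Adamts2 A_52_P510592 at 0.20, Adamts9 A_51_P479390 at -0.17 and Adamts10 A_52_P671784 at 0.24. At the Adamts9 probe the NVP arrays gave -0.21, -0.20, -0.16 and -0.16, below all vehicle arrays. It was the 1 of 15 member probes with NVP and vehicle apart, against 2.62% of all probes; for Ro25 the count was 0, against 0.775%. At the Adamts9 probe the limma adjusted p was 0.415, and red was well above background on 14 of 19 arrays, 3 of them NVP arrays.

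NVP and Ro25 share no array with the contrast that chose the members. Of the 15 probes 0 were called between them (limma; 0% of all), with 1 at an unadjusted p under 0.05, against 1.69% of all probes. The difference was -0.07 (95% interval -0.33 to 0.20) at Adamts1 A_52_P489295, 0.11 (-0.30 to 0.52) at Adamts8 A_51_P110830 and 0.04 (-0.15 to 0.23) at Adamts2 A_52_P510592. These intervals do not show that the compounds act alike, and their concentrations differed. The 1 probe was Adamts10 A_52_P671784 at 0.32 (limma adjusted p = 1), where NVP gave -0.26, -0.23, -0.55 and -0.57 and Ro25 -0.56, -0.76, -0.89, -0.60 and -0.81. Those ranges overlapped, and red was above background there on 12 of 19 arrays. At 1 of 15 member probes NVP and Ro25 did not overlap (Adamts9 A_51_P479390, -0.10), against 0.726% of all probes. Red was above background at that Adamts9 probe on 14 of 19 arrays.

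Set against the other antagonists, AP5 did not overlap them at the 5 probes of Adamts1, Adamts8 and Adamts2 that set it apart from vehicle. Adamts9 A_52_P49321 was a further probe at which AP5 and NVP did not overlap (-0.13), which makes 6 of 15 against NVP and 5 of 15 against Ro25. Over all probes the groups did not overlap at 7.63% and 6.49%. These differences use the AP5 arrays that chose the members and carry no test. Against NVP they were -0.87 (SE 0.12) and -0.64 (SE 0.08) at the Adamts1 probes, 0.92 (SE 0.20) and 0.98 (SE 0.19) at the Adamts8 probes and 1.24 (SE 0.09) at Adamts2 A_52_P510592. Against Ro25 they were -0.94, -0.61, 1.03, 1.05 and 1.28. Slide 2 held AP5 replicate 5 with NVP replicates 1 and 3, which gives a value within a slide. There AP5 minus NVP was -0.40 and -0.44 at Adamts1, 1.25 and 1.55 at Adamts8 and 1.01 at Adamts2 A_52_P510592. With 1 AP5 array these values have no error. AP5 replicate 5 was also the AP5 array lowest in astrocyte markers, with a list mean of 3.46. NVP replicates 1 and 3 had 4.70 and 4.96. In the within-slide values, treatment and that difference between arrays cannot be told apart. The within-slide values were smaller in size than the pooled ones at both Adamts1 probes and at Adamts2 A_52_P510592, and larger at both Adamts8 probes.

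Within slide 3, NVP minus Ro25 (2 arrays each) was 0.06 and 0.10 at Adamts1, 0.19 and 0.17 at Adamts8 and -0.12 at Adamts2 A_52_P510592. Within slide 4, Ro25 minus vehicle (3 arrays against 1) was -0.16 and 0.01, -0.20 and 0.06, and 0.26.

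**Figure D3:**
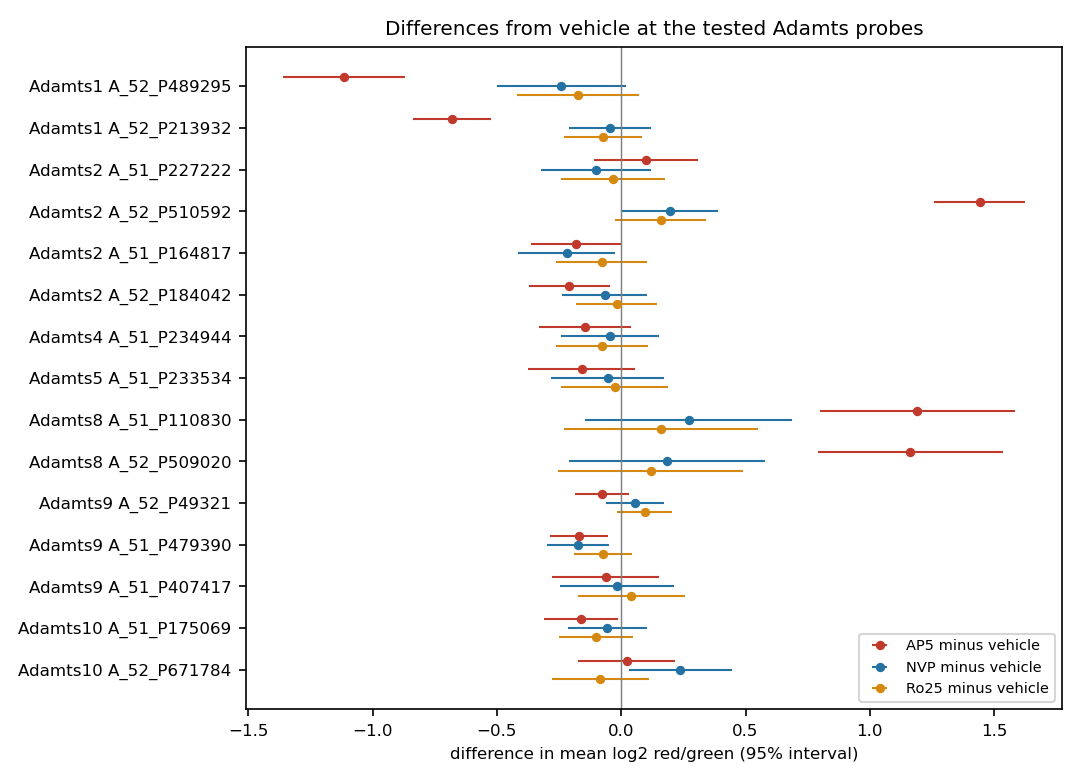
Differences from vehicle in mean log2 red over green (x axis) with 95% intervals at the 15 fitted probes of the 7 genes, for AP5, NVP and Ro25. The AP5 points leave the others at both Adamts1 probes (-1.12 and -0.68), both Adamts8 probes (1.19 and 1.16) and Adamts2 A_52_P510592 (1.44), while NVP and Ro25 stay between -0.24 and 0.27 everywhere.

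RefSeq promoter windows (GRCm38.p6), taken as the 250 bases before the annotated start, were found for 3 of the 7 members: Adamts1, Adamts2 and Adamts9. They were searched on both strands for the CRE TGACGTCA, its core TGACG, the AP-1 site TGANTCA, the EGR site GCGNGGGCG, the CArG box, the MEF2 site and the TATA motif TATAAA; the core lies inside the full CRE. The Adamts1 and Adamts9 windows are shown because both held the core, and Adamts1 is the member with lower values in AP5; capitals mark TGACG and TATAAA. The Adamts1 window is chr16:85803114-85803363 (minus strand) and the Adamts9 window chr6:92943535-92943784 (minus strand).
Adamts1: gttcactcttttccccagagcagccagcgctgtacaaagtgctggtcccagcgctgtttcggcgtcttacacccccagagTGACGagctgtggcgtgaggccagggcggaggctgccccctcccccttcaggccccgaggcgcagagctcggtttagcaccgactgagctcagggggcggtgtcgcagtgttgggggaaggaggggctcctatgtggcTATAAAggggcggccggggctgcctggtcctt
Adamts9: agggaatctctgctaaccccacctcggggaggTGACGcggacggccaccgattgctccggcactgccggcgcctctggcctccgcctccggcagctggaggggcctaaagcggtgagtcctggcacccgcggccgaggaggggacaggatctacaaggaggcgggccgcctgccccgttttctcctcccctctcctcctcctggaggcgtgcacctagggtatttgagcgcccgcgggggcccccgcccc

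TGACG lay 170 to 166 bases before the start of Adamts1 and 218 to 214 bases before that of Adamts9, and TATAAA lay 32 to 27 bases before the start of Adamts1. Of 32851 RefSeq windows of the same length, 17.8% held TGACG and 12.4% TATAAA. The full CRE, the AP-1 site, the EGR site, the CArG box and the MEF2 site matched in none of the 3 windows; they occur in 1.55%, 6.75%, 4.7%, 1.47% and 2.92% of all windows. The Adamts2 window held none of the searched motifs. At their brightest probes the AP5 minus vehicle difference was -1.12 for Adamts1 and -0.08 for Adamts9. Whether the TGACG core has a part in either was not tested.

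The genes whose profiles over the 19 arrays were nearest to Adamts1 were Csrnp1, Rasl11a, Ankrd37 and Phlda1. Likeness was the root-mean-square difference between centred log2 profiles among 16008 genes. It was 0.13, 0.13, 0.14 and 0.15, against a median over all genes of 0.50. Their AP5 minus vehicle differences were -1.07, -1.20, -1.22 and -1.19, and their NVP minus vehicle differences ran from -0.26 to -0.17. For Adamts8 they were Colec11, Kdr, Dnajc28 and Nhlh2, at 0.19, 0.20, 0.21 and 0.21, against a median of 0.56. Their AP5 minus vehicle differences were 0.99, 1.28, 1.04 and 0.87. Kdr encodes the main VEGF receptor of endothelial cells. These lists rest on the same arrays as the choice of members and are a description.

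The rest of the matrix system was read from 7 lists: the other ADAMTS proteases, the ADAMTS-like proteins, proteoglycan substrates and net parts, fibrillar substrates, inhibitors with cofactors and activators, matrix metalloproteases, and thrombospondins with vascular genes. Of their 61 fitted genes, each read at its brightest probe, 13 were called between AP5 and vehicle, 10 higher and 3 lower; of all genes 17.7% were called (10.6% higher and 7.04% lower). The share called was thus near that of all genes. None was called in NVP minus vehicle, Ro25 minus vehicle or NVP minus Ro25, where the smallest limma adjusted p was 0.351, 0.617 and 1.

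Of 13 proteoglycan substrates and net parts, 3 rose with AP5 and 0 fell. The list's median was 0.04, against 0.01 over all genes. Acan, encoding aggrecan, gave 0.92, 1.62, 1.58, 1.43 and 1.03 in vehicle and 2.35, 1.83, 2.00, 2.45 and 2.22 in AP5. It rose by 0.85 (SE 0.15; limma adjusted p = 0.00086), and the groups did not overlap. Acan was called in 11 of 14 alternatives. The extraction software's ratio gave 0.85 (limma adjusted p = 0.11) and the background model fitted to every spot 0.64 (limma adjusted p = 0.255). The NVP and Ro25 arrays of Acan ran within or just above the vehicle range, with means of 1.42 and 1.37.

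Ncan, encoding neurocan, rose by 0.71 (SE 0.12; adjusted p = 0.000816). Its marked spots on AP5 replicates 2 and 5 and vehicle replicate 1 were left out, so 3 AP5 arrays (7.14, 6.87 and 7.13) stand against 4 vehicle arrays (6.65, 6.31, 6.13 and 6.27). In red signal alone the Ncan difference was 0.25 (limma adjusted p = 0.487). Bcan, encoding brevican, rose by 0.48 (SE 0.08; adjusted p = 0.000249). Bcan gave -0.10 in red signal alone and -0.07 with a fixed slide block, so its direction depends on the setting.

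The other ADAMTS proteases numbered 10 fitted genes, with 3 higher, 0 lower and a median of -0.06. Adamts18 rose by 0.28 (SE 0.05; adjusted p = 0.00192), with 0.37, 0.34, 0.37, 0.55 and 0.39 in vehicle and 0.83, 0.64, 0.62, 0.71 and 0.61 in AP5. Its size depends on the setting, at 0.038 in red signal alone (limma adjusted p = 0.909) and 0.68 with the extraction software's ratio (limma adjusted p = 0.207). Adamts13, which cuts von Willebrand factor, rose by 0.30 (SE 0.07; adjusted p = 0.00936). Adamts14, a procollagen propeptidase like Adamts2, rose by 0.23 (SE 0.06; adjusted p = 0.0112) at its brightest probe and gave -0.05 at its other probe. Over the alternatives Adamts13 ran from 0.18 to 0.50 and was called in 9 of 14, and Adamts14 ran from 0.091 to 0.38 and was called in 7 of 13. All 3 were smaller than the differences at Adamts1 and Adamts8, and Adamts13 and Adamts14 had overlapping groups. None of the 5 ADAMTS-like genes passed; the smallest p was that of Adamtsl4, at -0.25 (limma adjusted p = 0.0618).

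Among 10 inhibitors, cofactors and activators, 1 rose and 1 fell (median -0.01). Furin, the proprotein convertase that removes ADAMTS propeptides, gave 0.01, -0.10, 0.07, 0.03 and -0.01 in vehicle. AP5 gave -0.69, -0.45, -0.43, -0.58 and -0.68, with no overlap. It fell by 0.56 (SE 0.06; limma adjusted p = 2.97e-06), and was -0.05 and -0.06 on average in NVP and Ro25. Within slide 2, Furin was lower in the AP5 array, the one lowest in astrocyte markers, than in the NVP arrays, with a difference of -0.65. Of the other called list genes, Bcan (-0.09) and Mmp9 (0.07) went against their pooled direction there. Mmp2 (-0.04) and Adamts18 (0.08) kept theirs at a small size, Ncan had no value, and the rest kept their direction. With median centring Furin was at -0.33 (limma adjusted p = 0.0616).

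Timp2, an inhibitor of matrix metalloproteases, rose by 0.66 (SE 0.16; adjusted p = 0.0109), with 4 arrays in both groups after a marked spot was left out on AP5 replicate 1 and on vehicle replicate 3. It was called in 8 of 13 alternatives and was 0.31 in red signal alone (limma adjusted p = 0.0667). Timp3, the main inhibitor of Adamts4 and Adamts5, gave -0.14 (adjusted p = 0.598).

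Of 9 matrix metalloproteases 2 rose and 2 fell (median -0.08). The membrane-anchored Mmp24 rose by 0.53 (SE 0.08; adjusted p = 0.000178) and Mmp17 by 0.47 (SE 0.08; adjusted p = 0.000507). Mmp17 was 0.0051 with slide as a fixed block (limma adjusted p = 0.996) and 0.17 in red signal alone (limma adjusted p = 0.395). Mmp24 was 0.27 with the background model fitted to every spot (limma adjusted p = 0.892). The gelatinase Mmp2 fell by 0.23 (SE 0.06; adjusted p = 0.00877), a direction that flips to 0.01 with median centring. The other gelatinase, Mmp9, fell by 0.19 (adjusted p = 0.0438), but it was 0.09 both in red signal alone and with a fixed slide block. The Mmp9 call held in 3 of 10 fits that left out 1 AP5 or vehicle array, those without AP5 replicate 5, vehicle replicate 2 or vehicle replicate 4.

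None of 7 fibrillar substrates and partners passed (median -0.04), and Fbn1, encoding fibrillin-1, had the smallest p at -0.19 (limma adjusted p = 0.162). Of 7 thrombospondins and vascular genes 1 rose, Kdr (list median -0.06). It gave 1.99, 2.18, 2.17, 2.47 and 1.86 in vehicle and 3.64, 3.35, 3.20, 3.14 and 3.75 in AP5, and rose by 1.28 (SE 0.13; adjusted p = 3.44e-06) with no overlap. It was also the nearest but one to Adamts8 in profile. Of the endothelial markers, Emcn, Tek, Pecam1 and Cldn5 were fitted and 0 of these 4 were called, with a list mean of -0.01 in both groups; Cdh5 and Tie1 were not above background.

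The number of calls depended on the setting. Of the 61 genes, 1 was called with the background model fitted to every spot (Furin), 4 with array spreads set equal, 6 in red signal alone and 1 with slide as a fixed block (Ncan). All AP5 values of Ncan came from slide 1, which held no other group. For Ncan that fit could therefore not separate slide from AP5, and nothing is read from the call. Kdr and Furin were called in 12 of 14 alternatives each.

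**Figure D4:**
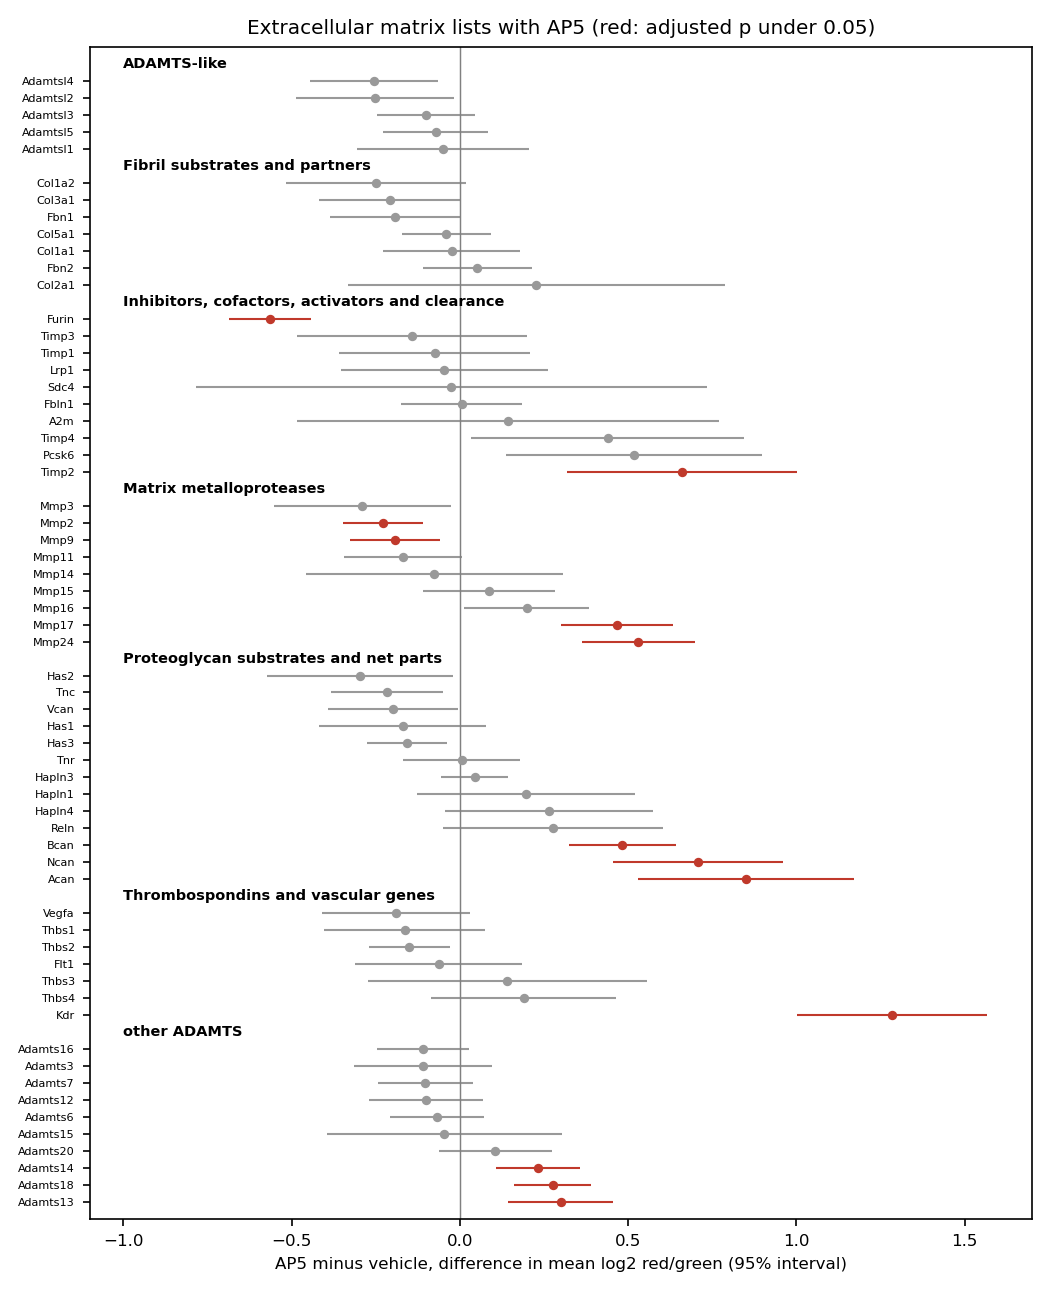
AP5 minus vehicle in mean log2 red over green (x axis) with 95% intervals for the 61 fitted genes of the 7 matrix lists, each at its brightest probe; red marks a limma adjusted p under 0.05. Of the 13 red genes, Furin, Mmp2 and Mmp9 lie left of 0, and Kdr, at 1.28, lies farthest right.

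Some cell type markers were called between AP5 and vehicle as well. Of 8 neuron markers 4 were called higher with AP5, against 10.6% of all genes; the list mean ran from 4.76 to 5.11 in vehicle and from 5.19 to 5.36 in AP5. Its group means were 4.96 in vehicle, 5.27 in AP5, 5.17 in NVP and 5.16 in Ro25. Astrocyte markers had 1 of 8 called higher (vehicle 3.33 to 4.67, AP5 3.46 to 5.09), and oligodendrocyte lineage markers 2 of 9 higher (1.68 to 2.34 and 2.04 to 2.61). Microglial markers (-2.25 to -2.02 in vehicle and -2.37 to -2.23 in AP5) had 2 of 6 called lower, against 7.04% of all genes. Itgam was above background on 0 arrays. The microglial group means were -2.14 in vehicle, -2.29 in AP5, -2.30 in NVP and -2.29 in Ro25. Mural and fibroblast markers had 0 of 7 called (-2.56 to -2.39 and -2.70 to -2.40). Without the array of each group lowest in astrocyte markers, AP5 minus vehicle was -1.17 and -0.69 at Adamts1, 1.21 and 1.16 at Adamts8 and 1.43 at Adamts2 A_52_P510592. The part of these cell types in the differences was not tested.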

How the data were processed

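RNA of 19 samples of cultured mouse hippocampal neurons was hybridised with a reference RNA on Agilent arrays of 45018 features. Per the file headers, the deposited scanner intensity of each spot was extracted with Feature Extraction 9.5.3.1 and probes are placed on mm8; per the submitters' processing notes, version 11.0 was used. The deposited log10 ratio of each spot is the extraction software's own, per the file headers. The authors' deposited table holds log2 values for 20674 probes, 6 of the 15 member probes among them; against the ratios used here its slopes were 0.989 to 1.01, so it is log2 of red over green, and how it was centred is unknown (column medians 0.0345 to 0.0478).

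Starting from mean spot intensities, spots marked as not uniform or outliers (117 to 1642 gene spots per array) were left out. Background was corrected by normexp (offset 50), ratios were normalized by loess within each array, and spots of a probe were averaged. Kept probes had red well above background on at least 4 arrays and at least 2 values in each group. limma 3.58.1 in R 4.3.3 was fitted over all 19 arrays, with Benjamini-Hochberg adjustment over 28638 probes and a threshold of 0.05. A gene in a list was read at its brightest probe. The scripts were tested on simulated data. Precision is limited by how many arrays each group has.

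The members, lists and tests were chosen with earlier results of these data known. Named genes were all member probes, up to 3 called genes of each list with the smallest p (the gene with the smallest p where none was called), and the 4 genes nearest in profile to Adamts1 and to Adamts8; Timp3 and Mmp9 were added after their values were seen. Slides were read from the array barcodes. Alternatives changed the background model, normalization, filter, probe rule, block and arrays left out.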

Additional observations from a re-analysis of the deposited data

Results flagged for a closer look

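Among 60 groups of 4 or 5 arrays of the member probes, 2 had an array far from the others; chance flags about 1 in 20 groups. At Adamts2 probe A_51_P227222, AP5 replicate 1 gave a log2 ratio of -3.91, while the other AP5 arrays lay between -4.36 and -4.27. At Adamts10 probe A_51_P175069, vehicle replicate 5 gave -0.71, while the other vehicle arrays lay between -1.16 and -1.05. That array also had the most marked gene spots, 1642.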

How the results depend on the processing

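For the AP5 minus vehicle difference, Adamts1 A_52_P489295 ran from -1.17 to -0.50 over 14 alternatives, Adamts8 A_51_P110830 from 0.77 to 1.48 over 14 and Adamts2 A_52_P510592 from 1.15 to 1.87 over 13, with no change of sign. Leaving out 1 array, they ran from -1.19 to -1.05, from 1.08 to 1.28 and from 1.39 to 1.49. Over the alternatives, small AP5 differences of other member probes changed sign. Adamts4 A_51_P234944 ran from -0.24 to 0.02, Adamts5 A_51_P233534 from -0.17 to 0.35 and Adamts10 A_51_P175069 from -0.21 to 0.13. Others kept their sign, such as Adamts2 A_52_P184042 (-0.49 to -0.12) and Adamts9 A_51_P479390 (-0.59 to -0.0076).

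The 4866 probes called between AP5 and vehicle became 958 with the background model fitted to every spot, 1416 with array spreads set equal, 3056 in red signal alone, 11 with slide as a fixed block and 2818 in the authors' table, which holds fewer probes. The 13 matrix genes became 1, 4, 6 and 1 in the first 4 of these. The gene called with slide as a fixed block was Ncan, whose AP5 values all came from slide 1, so slide was not corrected for there. Other settings raised the number of AP5 calls, to 6856 with median centring and to 6889 with slide as a random block. Ro25 minus vehicle went from 0 to 1 with slide as a fixed block, and to 2 without the array of each group lowest in astrocyte markers, an alternative chosen after seeing the data. The cause was not tested. Leaving out 1 array gave 3569 to 4913 calls for AP5, 12 to 15 matrix genes, 0 to 2 calls for NVP and 0 to 2 for Ro25 (in both cases 2 without vehicle replicate 2) and 0 to 0 between NVP and Ro25.

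Small differences of NVP and Ro25 changed sign. With the background model fitted to every spot, Ro25 minus vehicle was -0.56 and -0.44 at Adamts8 (A_51_P110830 and A_52_P509020) and 0.038 at Adamts1 A_52_P213932, and NVP minus Ro25 was -0.058 at the latter. With median centring, NVP minus vehicle was 0.13 at Adamts1 A_52_P213932, and Ro25 minus vehicle 0.080 there and 0.040 at A_52_P489295. With array spreads set equal, Ro25 minus vehicle was -0.082 and -0.036 at Adamts8 and NVP minus Ro25 was -0.042 at Adamts1 A_52_P213932. In red signal alone, NVP minus Ro25 was -0.052 at Adamts8 A_51_P110830, -0.0025 at A_52_P509020 and -0.0058 at Adamts1 A_52_P213932. The extraction software's ratio gave 0.0034 for NVP minus vehicle at Adamts2 A_51_P164817. With slide as a fixed block, NVP minus vehicle was -0.0067 at Adamts8 A_51_P110830 and 0.11 at Adamts1 A_52_P213932, Ro25 minus vehicle -0.20 and 0.012 at these, and NVP minus Ro25 0.061 at Adamts1 A_52_P489295 and -0.12 at Adamts2 A_52_P510592. Leaving out 1 array, NVP minus Ro25 ran from -0.033 to 0.073 and from -0.16 to 0.016 at Adamts1 (A_52_P213932 and A_52_P489295), from -0.030 to 0.21 and from -0.014 to 0.16 at Adamts8 (A_51_P110830 and A_52_P509020) and from -0.0036 to 0.11 at Adamts2 A_52_P510592, and NVP minus vehicle from -0.11 to 0.0089 at Adamts1 A_52_P213932.

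Equal replicate numbers do not pair the samples, since their deviations correlated from -0.61 to 0.74. Arrays with unequal numbers correlated from -0.71 to 0.81. AP5 replicate 5, NVP replicate 4, Ro25 replicate 3 and vehicle replicate 3 correlated with each other at 0.61 to 0.81. Each of these was the array of its group lowest in astrocyte markers. A grouping of samples under other numbers was not tested, and the fits do not take it into account. A replicate block gave 4257 calls for AP5 and 0 for NVP and Ro25. A dim green signal limits the size of the Adamts8 ratios.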
